A study of Mus musculus with 13 samples.

Results

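Store-operated calcium entry was followed through 9 genes: the store calcium sensors Stim1 and Stim2, the entry channels Orai1, Orai2 and Orai3, the store pump Atp2a2 and the store release channels Itpr1, Itpr2 and Itpr3. They were found by gene symbol among the 55642 genes of the count table, and all 9 were among the 16848 genes that passed the filter on low counts. The set was chosen by a measured value, the lower level of Stim2 after YBX3 knockdown (KD), so the YBX3 KD values of Stim2 are given as a description with no test. The other 8 genes belong to the set for their role beside Stim2.

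The libraries came from C2C12 cells, an immortalized mouse myoblast line that can fuse into myotubes when serum is changed. Every culture was reverse-transfected with siRNA, either nontargeting (control KD) or against YBX3 (YBX3 KD), and was harvested 48 h after transfection, so no group was free of siRNA. Proliferating myoblasts (0 day) stayed in DMEM with fetal bovine serum, and differentiating myoblasts (1 day) spent the last 24 h in DMEM with horse serum. Of the 13 libraries, 8 were from 0 day, with replicates A to D of each siRNA. The remaining 5 were from 1 day, with replicates C and D of control KD and replicates B, C and D of YBX3 KD. The labels do not say whether the letters mark separate cultures, so p-values measure only the spread between these libraries, which may be technical.

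The libraries held 33451547 to 71811371 counts each. Ybx3 itself, the targeted gene, lay between 265 and 347 CPM (counts scaled for library size and composition) in the 6 control KD libraries and between 28.7 and 71.5 CPM in the 7 YBX3 KD libraries, which was 14.5% of the control mean. Ybx3 fell by 2.81 on the log2 scale (edgeR quasi-likelihood test, Benjamini-Hochberg adjusted p = 5.26e-06). The 4 libraries of replicate D stood apart: the D library was the highest of its group in all 4 groups for 21.9% of the genes tested and the lowest in all 4 groups for 21.3%. Values without replicate D are therefore given for several comparisons.

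In store-operated calcium entry, calcium leaves the endoplasmic or sarcoplasmic reticulum, the cell's calcium store, through IP3 receptors or ryanodine receptors, and the fall in store calcium is sensed by STIM proteins in the store membrane. STIM proteins then gather where the store lies close to the plasma membrane and open ORAI channels, and SERCA pumps return calcium to the store. STIM1 is the sensor of strong store depletion, and STIM2 responds to smaller falls and helps set resting calcium. In skeletal muscle the pathway takes part in myoblast differentiation and in refilling the store of working fibers.

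The study lists 4 siRNAs against mouse YBX3 and does not say which of them, alone or pooled, gave the libraries described here. For these libraries it writes of siRNAs in the plural, and in other experiments it used a pool or single siRNAs. The guide strands of the 4 siRNAs are shown 5′ to 3′, with the seed (bases 2 to 8 of the guide) in capitals. They are shown because 1 of the seeds has a match in the 3′ untranslated region (3′ UTR) of Stim2.
YBX3 siRNA 05: uAUAGUUGuagggacgucg
YBX3 siRNA 06: aUAGUAGCcgcgucuguac
YBX3 siRNA 07: uCCAUAUCcauuucugacg
YBX3 siRNA 08: aUACUUGCguggguuguuu
The listed sense strand of siRNA 07 is not complementary to its listed guide, so the guide of 07 is uncertain. The sequences below are from the sense strand of the canonical transcripts (GENCODE annotation, GRCm39), with the 7 bases complementary to a seed in capitals.
Stim2, match to YBX3 siRNA 08: aaaaaatctctGCAAGTAaaactgtatag
Itpr2, match to YBX3 siRNA 06: tgagtgcctatGCTACTAaaatatatagg
The Stim2 stretch lies at chr5:54276562-54276590 on the plus strand, with the match at bases 482 to 488 of a 3′ UTR of 2308 bases. The Itpr2 stretch lies at chr6:146012359-146012387 on the minus strand, with the match at bases 793 to 799 of a 3′ UTR of 3372 bases. In both the base after the match is an A, and 13 of the 19 guide bases paired with the Stim2 stretch against 10 of 19 with the Itpr2 stretch. Of the 9 genes, only Stim2 held a match to the seed of siRNA 08 (GCAAGTA) and only Itpr2 a match to that of siRNA 06 (GCTACTA), and none of the 9 held a match to siRNA 05 (CAACTAT) or 07 (GATATGG). Among the 12919 tested genes with an annotated 3′ UTR, 6.83% held the siRNA 08 match and 4.91% the siRNA 06 match. A match to any of the 4 YBX3 seeds was held by 2 of the 9 genes and by 20.4% of the 3′ UTRs. With bases 2 to 7 of the guide in place of 2 to 8, 4 of the 9 genes held a siRNA 08 match (Stim2, Orai2, Orai3 and Atp2a2), as did 27.4% of the 3′ UTRs, and Stim2 held 2 matches to siRNA 05, which 28.8% of the 3′ UTRs held. The 3′ UTR of Stim2 also held matches to the seeds of 2 of the 4 listed nontargeting siRNAs, control siRNA 02 (TTGTGTG, in 24.9% of the 3′ UTRs) and control siRNA 03 (TTTTCTG, in 29.6%). All searches read the sense strand of the 3′ UTR. A match is a description of letters and not of a site in use.

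Stim2 (ENSMUSG00000039156, chr5:54155778-54278399, plus strand, GRCm39) was lower in every YBX3 KD library than in every control KD library. At 0 day the 4 control KD libraries (A to D) held 53.1, 56.9, 57.9 and 50.04 CPM, and the 4 YBX3 KD libraries held 31.7, 31.2, 33.8 and 27.5 CPM. At 1 day the levels were 53.6 and 52.2 CPM in replicates C and D of control KD, and 33.8, 36.7 and 27.7 CPM in replicates B, C and D of YBX3 KD. The groups did not overlap on either day. Over both days together, such a gap in this direction was found for 1.08% of the genes tested. The YBX3 KD mean was 57.0% of the control mean at 0 day and 61.8% at 1 day. Over both days the log2 fold change was -0.77, and without replicate D it was -0.74. No interval is given, because the set was chosen by this fall, and that choice may make it look larger. In bulk RNA, fewer cells that express a gene and less of its RNA per cell cannot be told apart. The counts behind these values were 1084 to 3583 reads per library.

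When libraries of equal letter and day were set against each other, each of the 6 pairs had less Stim2 in YBX3 KD, at 53.1% to 68.4% of its control. The highest ratio was that of replicate C at 1 day, and a relation of Stim2 to the Ybx3 left in each library was not tested. The D library was the lowest of its group for Stim2 in all 4 groups, as it was for Ybx3 and for 21.3% of all genes tested.

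Stim1 (ENSMUSG00000030987, chr7:101916979-102086526, plus strand), the other store sensor, was at nearly the same level in all groups. At 0 day it held 41.9, 38.4, 41.0 and 34.2 CPM in the control KD libraries A to D and 41.0, 39.2, 38.6 and 40.04 CPM in the YBX3 KD libraries A to D. At 1 day it held 38.2 and 39.8 CPM in the control KD libraries C and D and 36.1, 41.4 and 40.9 CPM in the YBX3 KD libraries B, C and D. The groups overlapped throughout. Its log2 fold change for YBX3 KD was 0.03 (95% interval -0.10 to 0.16, edgeR quasi-likelihood test, adjusted p = 0.877), so the interval excluded a fold change of 1.3 in either direction.

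**Figure D1:**
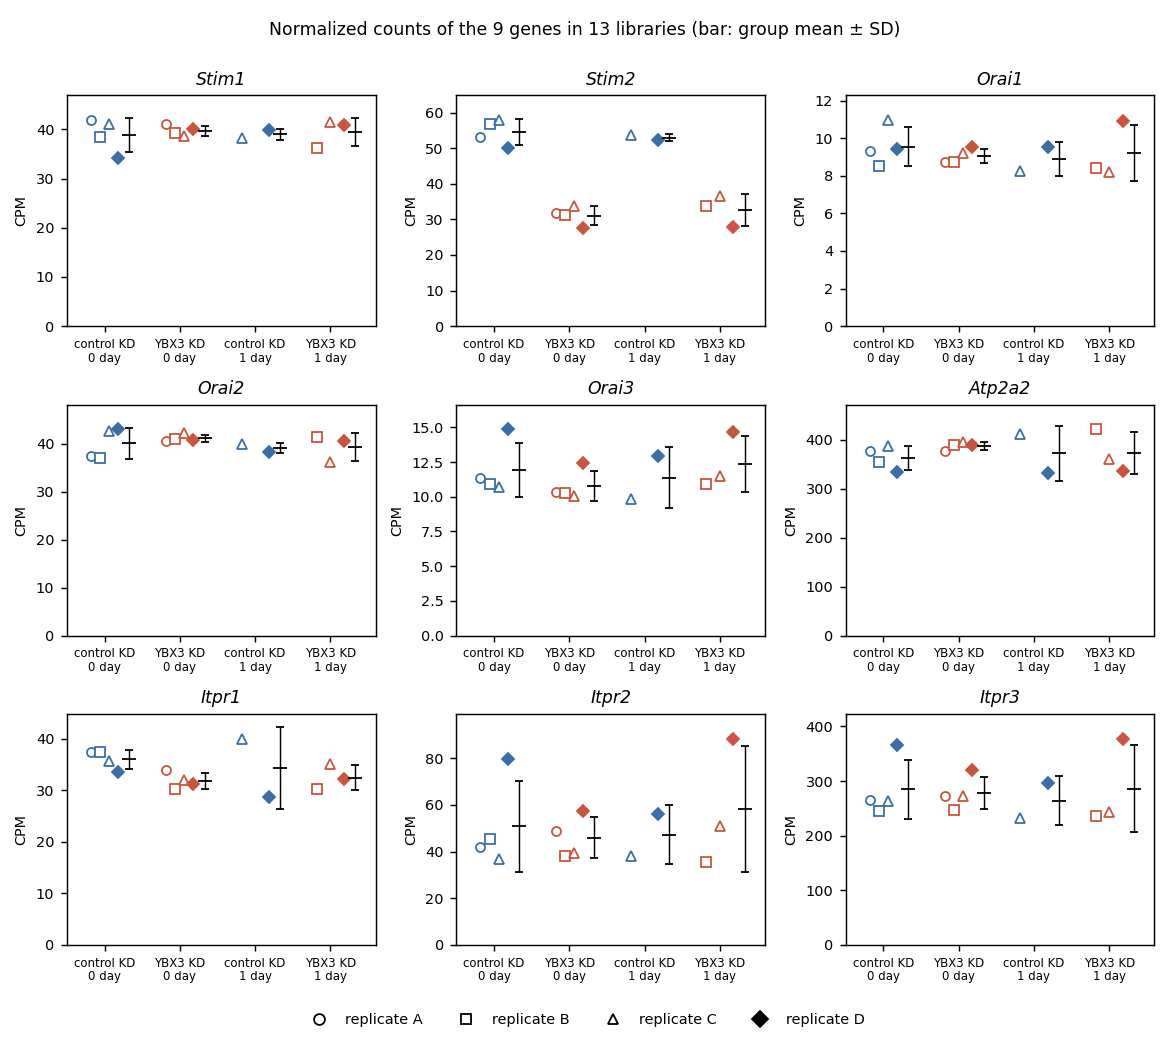
Normalized counts (CPM, vertical axes from 0) of the 9 genes in each of the 13 libraries, by siRNA (blue, control KD; red, YBX3 KD) and day, with marker shapes for the replicate letters and black bars for the group mean ± SD. Only the Stim2 panel has its control KD (50.04 to 57.9 CPM) and YBX3 KD (27.5 to 36.7 CPM) libraries apart, and the filled diamonds of replicate D are the highest of each group for Orai3, Itpr2 and Itpr3.

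The share of the STIM level held by Stim2 was taken per kilobase of canonical transcript, since levels of different genes can be compared only per length. Stim2 made up 55.5% ± 1.51 (SD, n = 6) of the summed STIM1 and STIM2 level in control KD and 41.9% ± 3.03 (SD, n = 7) in YBX3 KD. It was above Stim1 in all 6 control KD libraries (53.3% to 57.2%) and below it in all 7 YBX3 KD libraries (37.9% to 45.7%). With the length of all annotated exons of each gene in place of the canonical transcript, the shares were 73.5% and 61.5%, so that Stim2 stayed above Stim1 in both, and which of the 2 is the more abundant depends on the transcript length assumed. The summed STIM level was 19.7 ± 1.06 CPM per kb (SD, n = 6) in control KD and 15.4 ± 0.725 CPM per kb (SD, n = 7) in YBX3 KD.

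The ORAI genes encode the pore of the entry channel. Orai1 (ENSMUSG00000049686, chr5:123153043-123168535, plus strand), the main pore subunit in most cells, ranged from 8.22 to 10.96 CPM over the 13 libraries, and its log2 fold change for YBX3 KD was -0.03 (95% interval -0.23 to 0.17). Orai2 (ENSMUSG00000039747, chr5:136176310-136200044, minus strand), known to temper the current of Orai1, lay between 36.1 and 42.97 CPM, and its log2 fold change was 0.03 (95% interval -0.10 to 0.15). Neither gene had groups that were apart, and the adjusted p-values were 0.903 and 0.859 (edgeR quasi-likelihood test).

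Orai3 (ENSMUSG00000043964, chr7:127368982-127374330, plus strand) differed more by replicate letter than by siRNA. At 0 day the control KD libraries A to D held 11.4, 10.9, 10.7 and 14.9 CPM and the YBX3 KD libraries A to D held 10.4, 10.3, 10.1 and 12.4 CPM. At 1 day the control KD libraries C and D held 9.81 and 12.9 CPM and the YBX3 KD libraries B, C and D held 10.9, 11.5 and 14.7 CPM. All 4 D libraries were above all 9 others, which reached 11.5 CPM at most. The share of all genes with such a gap was not counted. The D library was the highest of its group in all 4 groups for 21.9% of all genes tested. The log2 fold change for YBX3 KD was -0.05 (95% interval -0.31 to 0.21, adjusted p = 0.884, edgeR quasi-likelihood test). Per kilobase, Orai2 made up 49.1% ± 2.27 of the summed ORAI level in control KD and 50.1% ± 3.03 in YBX3 KD (SD, n = 6 and 7), and the summed level was 20.7 ± 1.57 and 20.6 ± 1.31 CPM per kb.

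Atp2a2 (ENSMUSG00000029467, chr5:122591575-122640903, minus strand) encodes SERCA2, the pump that refills the store. It was the most abundant of the 9 per length and ranged from 332 to 421 CPM. Its control KD libraries ran from 332 to 412 CPM and its YBX3 KD libraries from 337 to 421 CPM, so the groups overlapped over nearly their whole range. The log2 fold change for YBX3 KD was 0.06 (95% interval -0.09 to 0.21, adjusted p = 0.729, edgeR quasi-likelihood test).

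The ITPR genes encode the IP3 receptors, which release calcium from the store. Itpr1 (ENSMUSG00000030102, chr6:108190048-108528070, plus strand) had the largest difference of the 8 genes beside Stim2. At 0 day it held 37.4, 37.4, 35.6 and 33.6 CPM in the control KD libraries A to D and 34.0, 30.2, 32.0 and 31.2 CPM in the YBX3 KD libraries A to D. At 1 day it held 39.97 and 28.7 CPM in the control KD libraries C and D and 30.2, 35.0 and 32.1 CPM in the YBX3 KD libraries B, C and D. It was lower in YBX3 KD in 5 of the 6 pairs, and the pair of replicate D at 1 day, whose control held the lowest value of all, went the other way. The log2 fold change was -0.14 (95% interval -0.31 to 0.02) and the adjusted p = 0.409 (edgeR quasi-likelihood test).

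Without the 4 libraries of replicate D, a comparison chosen after the values were seen, the Itpr1 log2 fold change was -0.23 and the adjusted p = 0.0282 (edgeR quasi-likelihood test). The remaining YBX3 KD libraries (30.2 to 35.0 CPM) then lay below the remaining control KD libraries (35.6 to 39.97 CPM). With replicate D left out, 12.5% of the genes tested had an adjusted p under 0.05 (6.68% lower), and 7.16% had their highest YBX3 KD value below their lowest control KD value. In the fits that kept replicate D libraries, Itpr1 did not pass, and its adjusted p was 0.337 with DESeq2 and 0.0542 with limma-voom.

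Itpr2 (ENSMUSG00000030287, chr6:146009797-146403721, minus strand) was the most variable of the 9. At 0 day the control KD libraries A to D held 41.9, 45.3, 36.7 and 79.6 CPM and the YBX3 KD libraries A to D held 49.0, 38.1, 39.6 and 57.4 CPM. At 1 day the control KD libraries C and D held 38.3 and 56.2 CPM and the YBX3 KD libraries B, C and D held 35.7, 51.1 and 88.3 CPM. The 4 D libraries (56.2 to 88.3 CPM) lay above the 9 others (35.7 to 51.1 CPM), a gap whose share over all genes was not counted. The siRNA groups overlapped. The log2 fold change for YBX3 KD was 0.02, and its 95% interval of -0.50 to 0.54 did not exclude a fold change of 1.3 in either direction. With the replicate letter as a block the interval narrowed to -0.22 to 0.38 around 0.08.

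Itpr3 (ENSMUSG00000042644, chr17:27275971-27343866, plus strand) was also highest in the 4 D libraries, at a higher level. At 0 day the control KD libraries A to D held 265, 245, 264 and 365 CPM and the YBX3 KD libraries A to D held 273, 247, 273 and 319 CPM. At 1 day the control KD libraries C and D held 233 and 296 CPM and the YBX3 KD libraries B, C and D held 236, 244 and 377 CPM. The lowest D library (296 CPM) was above the highest of the 9 others (273 CPM), again a gap whose share over all genes was not counted. The log2 fold change for YBX3 KD was 0.02 (95% interval -0.27 to 0.31, adjusted p = 0.959, edgeR quasi-likelihood test). Per kilobase, Itpr3 made up 79.8% ± 1.45 of the summed IP3 receptor level in control KD and 80.5% ± 1.58 in YBX3 KD (SD, n = 6 and 7).

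**Figure D2:**
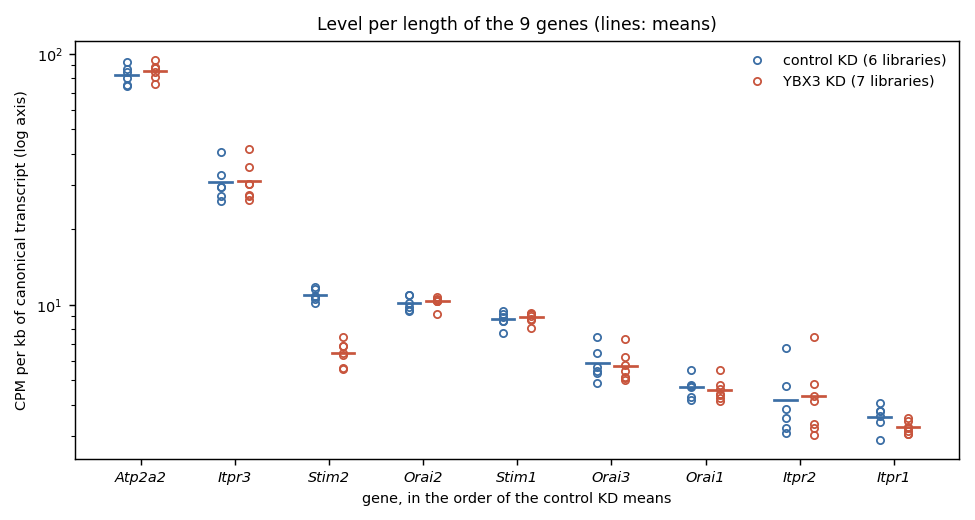
Level per length (CPM per kb of canonical transcript, log axis) of the 9 genes, ordered by their control KD means, with each library as a circle and the mean of the 6 control KD (blue) or 7 YBX3 KD (red) libraries as a line. Atp2a2 (82.4 in control KD) and Itpr3 (30.9) are well above the other genes, and Stim2 moves from 10.9 in control KD to 6.44 in YBX3 KD.

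The order of levels per kilobase of canonical transcript was the same in both siRNA groups for every gene but Stim2. In control KD, Atp2a2 led with 82.4 ± 7.14 CPM per kb (SD, n = 6), followed by Itpr3 at 30.9 ± 5.32, and neither range overlapped with that of the next gene. Stim2 (10.9 ± 0.598) and Orai2 (10.2 ± 0.666) followed with ranges that overlapped, and Stim1 (8.76 ± 0.608) lay below both. Orai3 (5.88 ± 0.911), Orai1 (4.70 ± 0.480), Itpr2 (4.2 ± 1.37) and Itpr1 (3.59 ± 0.397) formed the low end, and each overlapped with its neighbour. In YBX3 KD, Stim2 (6.44 ± 0.675, n = 7) stood at rank 5 of 9 in place of rank 3, below Stim1 (8.91 ± 0.416) in all 7 libraries, and its range overlapped with that of Orai3. With the length of all exons Stim2 was at rank 3 in both siRNA groups.

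The comparison of YBX3 KD with control KD over both days asked which transcripts differed between the 2 siRNA groups. Of the 8 genes beside Stim2, 0 had an adjusted p under 0.05 (edgeR quasi-likelihood test), against 2.34% of all genes tested, and 0 had an unadjusted p under 0.05, against 15.6%. DESeq2 and limma-voom with sample quality weights also called 0 of the 8 at an adjusted p under 0.05. The 8 log2 fold changes lay between -0.14 and 0.06, with a median of 0.02 beside 8.03e-04 over all genes tested. The 95% intervals of 7 of the 8 (all but Itpr2) lay within a fold change of 1.3, as did those of 35% of all genes tested. With the replicate letter as a block it was again 7 of the 8, against 43.5%. Of all genes tested, 0.113% passed the thresholds used by the study, a fold change over 1.3 and an adjusted p under 0.001.

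**Figure D3:**
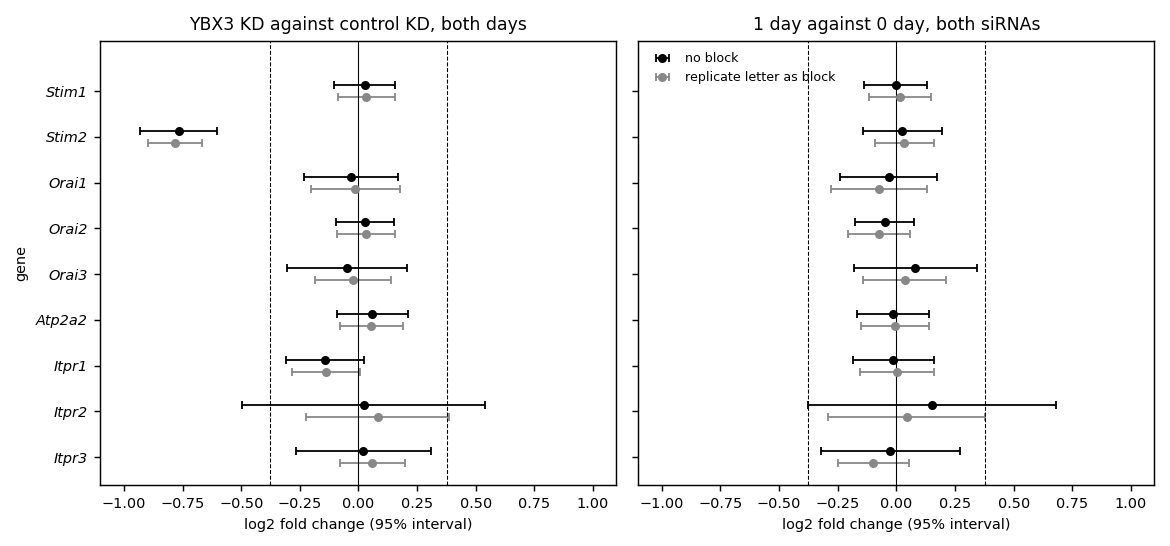
Log2 fold changes with 95% intervals of the 9 genes (horizontal axes; dashed lines, a fold change of 1.3) for YBX3 KD against control KD (left) and for 1 day against 0 day (right), without (black) and with (gray) the replicate letter as a block. On the left only Stim2 lies beyond the dashed line, at -0.77, and only the interval of Itpr2 crosses the lines, and on the right every interval spans 0. The interval drawn for Stim2 on the left is no test, since the set was chosen by that fall.

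Within each day the 8 genes beside Stim2 also stayed without a call. At 0 day their log2 fold changes ran from -0.18 (Itpr1) to 0.09 (Atp2a2), and the smallest adjusted p was 0.576. At 1 day, with 2 control KD libraries, they ran from -0.08 (Itpr1) to 0.31 (Itpr2), and the smallest adjusted p was 0.859 (edgeR quasi-likelihood test for both). At an adjusted p under 0.05, 0.427% of all genes tested passed at 0 day and 0.0712% at 1 day, and at an unadjusted p under 0.05 it was 0 of the 8 on each day, against 11% and 7.79%. The intervals of 4 of the 8 lay within a fold change of 1.3 on each day, against 24.9% of all genes at 0 day and 15.1% at 1 day. The log2 fold change of Stim2 was -0.81 at 0 day and -0.69 at 1 day. Without replicate D, which left replicate C as the only control KD library at 1 day, Stim2 was at -0.80 and -0.60. The 8 genes then ran from -0.21 (Itpr1) to 0.07 (Orai2) at 0 day and from -0.29 (Itpr1) to 0.19 (Orai3) at 1 day. The difference between the days in the effect of YBX3 KD on Stim2 was 0.12 on the log2 scale (95% interval -0.23 to 0.47), given as a description. For the other 8 genes this difference ran from -0.09 (Atp2a2) to 0.45 (Itpr2), and 0 of the 8 passed an adjusted p under 0.05, as did 0% of all genes tested. At an unadjusted p under 0.05 it was 0 of the 8, against 2.64%, and the intervals of 2 of the 8 lay within a fold change of 1.3, against 10.1%. With the replicate letter as a block, 1 of the 8 had an unadjusted p under 0.05, against 11% of all genes tested. That gene was Orai3, with a difference of 0.33 (95% interval 0.07 to 0.59, adjusted p = 0.433, edgeR quasi-likelihood test with the block). At 0 day all 4 same-letter pairs had less Orai3 in YBX3 KD (83.6% to 94.1% of control), and at 1 day both pairs had more (114% and 117%). Orai3 was singled out by that unadjusted p, and its 1 day part rests on replicates C and D alone. The share of all genes with such a pattern of pairs was not counted, so the pairs are only a description.

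The change of medium moved none of the 9 genes past the threshold. From 0 day to 1 day over both siRNAs, the log2 fold changes ran from -0.05 (Orai2) to 0.15 (Itpr2), and that of Stim2 was 0.02 (95% interval -0.14 to 0.19). All 9 adjusted p-values were 1.00 (edgeR quasi-likelihood test), and 0 of the 9 had an unadjusted p under 0.05, against 2.83% of all genes tested. At an adjusted p under 0.05 the day effect called 0% of all genes tested, against 2 genes with DESeq2, 33 with limma-voom and 23 in the block with DESeq2. Without replicate D it called 161 genes (0.932%), and again 0 of the 9, while 1 of the 9 had an unadjusted p under 0.05, against 11.6% of all genes tested. That gene was Itpr3 (log2 fold change -0.15, adjusted p = 0.303, edgeR quasi-likelihood test). The intervals of 8 of the 9 genes lay within a fold change of 1.3, as did those of 42.1% of all genes tested, and Itpr2 was again the exception.

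The replicate letter went with the levels of some of the 9 genes, as it did for many of all genes tested, so this is not particular to the 9. The D library was the highest of its group in all 4 groups for Orai3, Itpr2 and Itpr3 (3 of the 9, against 21.9% of all genes tested) and the lowest in all 4 groups for Stim2 (1 of the 9, against 21.3%). Relative to the mean of the other libraries of its group, the D library held 136% to 203% for Itpr2, 121% to 157% for Itpr3, 121% to 135% for Orai3 and 78.8% to 97.4% for Stim2. The summed IP3 receptor level was 46.9 ± 5.77 CPM per kb (SD) in the 4 D libraries and 35.2 ± 1.89 in the 9 others. The D libraries were also among the less deeply sequenced, with 33451547 to 41868570 counts against 36819569 to 71811371, and the part of depth or of the letter in these levels was not tested.

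**Figure D4:**
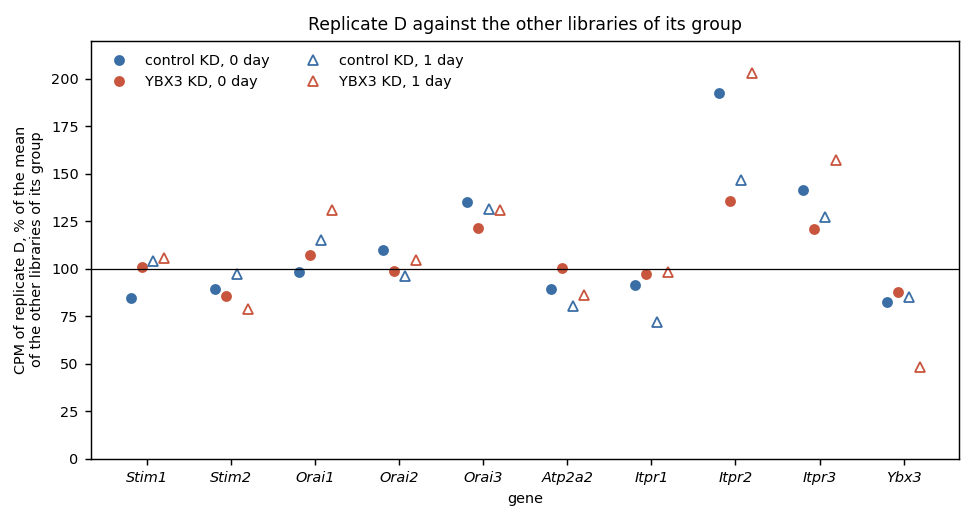
CPM of the replicate D library as a percentage of the mean of the other libraries of its group (vertical axis; line at 100%), for the 9 genes and Ybx3, with a point for each of the 4 groups. All 4 points lie above the line for Orai3, Itpr2 (up to 203%) and Itpr3, and all 4 lie below it for Stim2, Itpr1 and Ybx3.

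The wider calcium pathway was read from 12 lists of genes with 98 genes beside the 9, of which 92 had a count and 74 were tested. For YBX3 KD over both days 2 of the 74 were higher and 1 was lower at an adjusted p under 0.05 (4.05%, against 2.34% of all genes tested, 1.29% higher and 1.04% lower), and their median log2 fold change was 0.03. Asph, whose locus also encodes the store proteins junctin and junctate, rose from 211 ± 8.82 to 245 ± 13.1 CPM (SD, n = 6 and 7, log2 fold change 0.21, adjusted p = 0.0466, edgeR quasi-likelihood test), and its 7 YBX3 KD values all exceeded its 6 control KD values, as for 0.95% of all genes tested. Plcb4, a phospholipase C that forms IP3, rose from 64.4 ± 6.82 to 85.1 ± 10.5 CPM (log2 fold change 0.41, adjusted p = 0.0442). Itpka, a kinase that removes IP3, fell from 0.417 ± 0.0945 to 0.195 ± 0.0563 CPM (log2 fold change -1.07, adjusted p = 0.0383), but rested on 6 to 30 counts per library. These 3 calls were close to the threshold, and with 1 library left out Asph no longer passed in 11, Plcb4 in 9 and Itpka in 10 of the 13 cases, with the direction kept.

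With the replicate letter as a block, 8 of the 74 passed (5 higher and 3 lower, 10.8%, against 9.78% of all genes tested). The 5 added genes, named here after their values were seen, were Ryr3 (log2 fold change 0.72), a store release channel of muscle, Jph2 (0.62) and Jph1 (0.39), junctophilins that hold store and plasma membrane together, and Ppp3cb (-0.18) and Nfatc3 (-0.13) of the calcineurin and NFAT pathway. Their adjusted p-values in the blocked edgeR fit lay between 0.0265 and 0.0486. Without the block these 5 had adjusted p-values from 0.106 to 0.399.

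By list, 0 genes passed the unblocked test among the 9 tested of 12 regulators of STIM and ORAI (median log2 fold change -0.08), the 12 tested of 12 calcium-binding proteins of the store (0.01), the 8 tested of 8 genes of mitochondrial calcium uptake (-0.06), the 5 tested of 9 genes of calcium extrusion (0.03) and the 12 tested of 13 genes of calcineurin and NFAT (-0.04). Among store to membrane junction genes, 1 of the 8 tested passed (Asph), and the median was 0.32. Among genes of IP3 formation and breakdown, 2 of the 13 tested passed (Plcb4 and Itpka), and the median was 0.06. Beside Atp2a2, the pumps Atp2a1 (0.68 to 9.69 CPM) and Atp2a3 (0.08 to 1.76 CPM) were low and did not pass. Of the ryanodine receptors, Ryr2 reached 3 counts at most, and Ryr1 (2.69 to 22.7 CPM) and Ryr3 (16.5 to 62.8 CPM) varied widely within each siRNA group and did not pass without the block. Of the 7 TRPC channels 1 was tested (Trpc1, 2.95 to 5.81 CPM, log2 fold change 0.36, adjusted p = 0.152), and of the 6 micropeptides that bind SERCA 2 were tested and 0 passed. For the day effect 0 of the 74 passed.

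The label of the cells was checked against marker genes. Of 7 myoblast markers 6 reached 1 CPM, with Vim at 3024 to 4730 CPM, Cdh15 at 99.6 to 163 CPM and Myf5 at 31.3 to 73.5 CPM, and Pax7 did not pass 0.179 CPM. Myod1 was low, at 0.601 to 3.32 CPM. At 0 day the summed myoblast marker level was 4350 to 5070 CPM in control KD and 3390 to 4820 CPM in YBX3 KD. At 1 day it was 4320 to 4470 CPM and 3470 to 4400 CPM, respectively. Vim made up most of this sum, so the sum mainly follows that 1 gene. For YBX3 KD without the block, 5 of the 6 tested markers had a log2 fold change above 0, and 1, Vim (-0.19), was below 0. None of the 6 tested passed for YBX3 KD without the block, while with the replicate letter as a block Myod1 (log2 fold change 1.06) and Ncam1 (0.29) were higher and Vim (-0.23) was lower at adjusted p-values of 0.0155, 0.0131 and 0.0401 (edgeR quasi-likelihood test). The part of these markers in the level of Stim2 was not tested.

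Of 10 differentiation markers 7 were tested and 0 passed for day or for YBX3 KD. For YBX3 KD all 7 log2 fold changes were above 0, with a median of 0.65 beside 8.03e-04 over all genes tested. Their intervals were wide, such as -1.42 to 2.72 for Ckm, -1.15 to 2.58 for Myog and -1.19 to 2.70 for Acta1. Only the interval of Mymk lay above 0 (0.05 to 2.47). The share of all genes above 0 was not counted, so the shared direction is only a description. At 1 day the 10 differentiation markers summed to 6.43 to 13.2 CPM in control KD and 8.61 to 61.6 CPM in YBX3 KD. At 0 day they summed to 6.76 to 30.9 CPM and 12.9 to 23.9 CPM, respectively. Myogenin, Myog, the early switch of differentiation, lay between 0.05 and 3.46 CPM. The ranges of 0 day and 1 day overlapped under both siRNAs. The 10 markers of other cell types summed to 5.77 to 13.7 CPM over all libraries, led by Krt8 (1.23 to 6.92 CPM) and Hba-a1 (2.38 to 6.18 CPM), and Epcam was at 0 in all.

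Over the 13 libraries, the genes whose log2 CPM was most like that of Stim2 were Ybx3 (Pearson r = 0.987), Purb (0.979), Foxk2 (0.971), Aph1b (0.968) and Dcun1d4 (0.966), in 13 points that fall into the 2 siRNA sets. After the 4 group means were removed, they were Arrdc3 (0.976), Fgf7 (0.951), 4933429H19Rik (0.951), Ptpn12 (0.945) and Sdc4 (0.943). In the same measure, with the group means removed, r with Stim2 was -0.815 for Itpr3, -0.799 for Orai3, -0.749 for Itpr2, -0.526 for Orai1, -0.26 for Orai2, 0.0968 for Stim1, 0.284 for Itpr1, 0.416 for Atp2a2 and 0.851 for Ybx3. These points share the replicate letters and the depth of the libraries, so the values describe these 13 libraries.

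Genes with the same 7 bases as Stim2 in their 3′ UTR were then set beside all others, as a description, with Stim2 itself left out. Of the 17 other genes called lower at the thresholds of the study, 12 held the siRNA 08 match (70.6%). Such calls took in 0.107% of all genes tested, and the 17 included Ybx3, the targeted gene, which held no such match. The 12 were 1.36% of the 882 genes that held the match, against 0.0415% of the 12036 genes without it. Among the 882 genes the median log2 fold change was -0.06, 6.24% were lower at an adjusted p under 0.05 (edgeR quasi-likelihood test) and 1.36% were higher. Among the 12036 genes the median was 0.00107 and 0.922% were lower. Where the match was followed by an A, as in Stim2, 8 of 227 genes were called lower (3.52%) and 10.6% were lower at an adjusted p under 0.05. For the matches to control siRNA 02 and 03, which Stim2 also held, 0.249% of 3217 and 0.21% of 3818 genes were called lower, against 0.0928% and 0.0989% of the genes without them. A gene can hold several of these matches. Genes with the siRNA 06 match, the one Itpr2 held, were lower at an adjusted p under 0.05 in 4.10% of 634 cases, against 1.14% without it. Itpr2 itself was at 0.02. For siRNA 05 and 07 the share was 1.5% and 1.95%, against 1.27% and 1.24% of the genes without the match. Longer 3′ UTRs can hold more matches, and genes with and without a match were not compared at equal length. The 3′ UTR of Stim2 has 2308 bases, beside a median of 1332 over the tested genes with a 3′ UTR. All these genes share the 13 libraries, and the part of the match in the level of Stim2 was not tested.

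**Figure D5:**
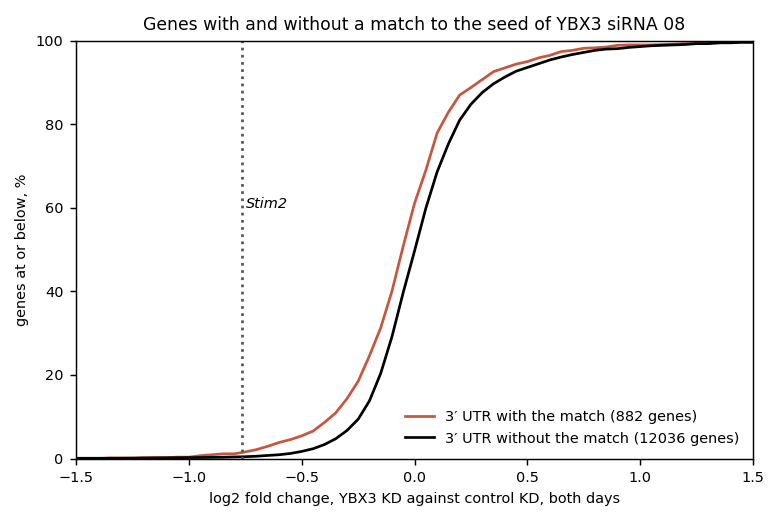
Share of genes (vertical axis, %) at or below each log2 fold change for YBX3 KD against control KD (horizontal axis), for the 882 genes other than Stim2 whose 3′ UTR holds the match to the seed of YBX3 siRNA 08 (red) and the 12036 without it (black). The red curve lies above the black one over most of the range, with 61.1% of genes with the match and 49.7% of those without it below 0, and the dotted line marks the log2 fold change of Stim2. The curves were not matched for 3′ UTR length.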

How the data were processed

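RNAseq of C2C12 cells was analysed in 13 libraries. Per the labels and the methods of the study, the authors prepared the libraries with a stranded mRNA kit, quantified reads by Salmon (GRCm39, Gencode M30), and the deposited values were estimated counts per gene, whole and not normalized. How the estimates were made whole is not given in the sources used here. Gene symbols, lengths and 3′ UTRs came from GENCODE vM39 on the same build, and 54969 of 55642 IDs had a symbol.

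The counts were tested with edgeR 4.0.16 (R 4.3.3, TMM factors, filterByExpr, quasi-likelihood test, Benjamini-Hochberg adjustment over all genes tested). The fit had siRNA and day as terms, while effects within a day, and their difference, were contrasts of the 4 group means. CPM used TMM library sizes. Genes were called at a fold change over 1.3 with an adjusted p under 0.001, and an adjusted p under 0.05 was also counted. Intervals cover 95%. DESeq2 1.42.0, limma 3.58.1 (voom with sample quality weights), other factors and filters, blocks and left-out libraries were tried. The model fits were also run on simulated counts with no effect of the replicate letter, so that check does not cover the spread that goes with the letters here. Residuals of libraries with the same letter correlated above 0.1 in 16 of 16 pairs across groups (median 0.338). For unlike letters it was 11 of 46 pairs (median -0.146), so the letters pair the libraries. The main fits had no term for the letter, and the fits with the letter as a block are given beside them.

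Named genes were the 9, Ybx3, up to 6 per direction of the other calcium genes with an adjusted p under 0.05, the myoblast and differentiation markers and the 5 genes most like Stim2, and any other gene was named after its values were seen. The genes and lists were chosen with earlier results of these data known. Depth was 33451547 to 71811371 counts per library. In the 16 pairs of libraries within groups the counts differed by more than sampling noise (chi-square per degree of freedom 19.0 to 275).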

Additional observations from a re-analysis of the deposited data

Results flagged for a closer look

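In the groups of 4 libraries, 18 sets of values of the 9 genes were examined for a library far from the rest of its group. In all, 3 were found, where chance gives about 1 in 20 for independent sets. Each was the replicate D library at 0 day, so the sets are not independent, and the share over all genes was not counted. Over all genes tested, the D library was the highest of its group in all 4 groups for 21.9% and the lowest for 21.3%. For Orai3, replicate D held 14.9 CPM in control KD, beside 10.7 to 11.4 CPM in replicates A to C, and 12.4 CPM in YBX3 KD, beside 10.1 to 10.4 CPM. For Itpr3, replicate D held 365 CPM in control KD, beside 245 to 265 CPM in replicates A to C. None of the 8 genes beside Stim2 had an effect of YBX3 KD that differed between the days by the adjusted test of the difference.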

How the results depend on the processing

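Of the 8 genes beside Stim2, 0 passed an adjusted p of 0.05 for YBX3 KD under every alternative run but the omission of replicate D, where 1 passed (Itpr1, log2 fold change -0.23), and 0 of the 8 passed within either day. For day 0 of the 9, and for the difference between days 0 of the 8, passed under all alternatives run. Stim2 stayed between -0.80 and -0.73 with 1 library left out, between -0.86 and -0.76 at 0 day and between -0.78 and -0.59 at 1 day. The paired analysis with the replicate letter as a block changed no call of the 8 genes beside Stim2 and no day call of the 9, and it raised the calcium genes passing from 3 to 8 of 74.

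Other settings gave 5 (DESeq2), 16 (limma-voom), 12 (block with DESeq2), 7 (without replicate D), 1 (block by title number) and 0 of the calcium genes (no filter, or the thresholds of the study), and 0 to 5 with 1 library left out. For the day effect 1 passed in the block with DESeq2 and 2 without replicate D. The block with DESeq2, the omission of replicate D and the length of all exons were chosen after seeing the data. All genes called numbered 19, against 188 (DESeq2), 185 (limma-voom), 9 (title number), 427 (block with DESeq2), 102 (without replicate D) and 10 to 21 with 1 library left out. Those at an adjusted p under 0.05 numbered 394, against 1179 (DESeq2), 3088 (limma-voom), 180 (no filter), 1647 (block), 2961 (block with DESeq2), 2155 (without replicate D) and 172 to 857 with 1 library left out. The cause was not tested.

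Log2 fold changes of genes that did not pass changed sign near 0. For YBX3 KD, Stim1 was -0.0167 without replicate D and Itpr3 -0.0128 in the block by title number. With 1 library left out, Stim1 ran from -0.00948 to 0.0485, Orai1 from -0.0827 to 0.0168, Orai3 from -0.133 to 0.0309, Itpr2 from -0.135 to 0.216 and Itpr3 from -0.0679 to 0.109. For day, Stim1 was 0.0144 and 0.0125 and Itpr1 0.00293 and 0.00356 in the letter block with edgeR and DESeq2. The block by title number gave -0.0281 for Stim2, 0.00948 for Orai1 and 0.104 for Itpr3. With limma-voom Atp2a2 was 0.0349 and Itpr1 0.0327, and without replicate D Atp2a2 was 0.0615, Itpr1 0.0576 and Itpr2 -0.0212, while Stim1 (-0.0552) and Orai1 (-0.145) kept their sign. With 1 library left out, the day values ran from -0.0296 to 0.0265 (Stim1), -0.0289 to 0.07 (Stim2), -0.113 to 0.0111 (Orai1), -0.00853 to 0.169 (Orai3), -0.0799 to 0.0245 (Atp2a2), -0.0824 to 0.0675 (Itpr1), -0.0952 to 0.282 (Itpr2) and -0.161 to 0.0433 (Itpr3). With bases 2 to 7 as the seed, 4 of the 9 genes in place of 1 held a siRNA 08 match.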
